A study of Homo sapiens with 6 samples.

Results

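Cohesin is described here through 10 genes, taken by name from the 21447 genes to which the transcripts of 6 RNA-seq libraries were assigned. SMC1A, SMC3 and RAD21 encode the ring, and STAG1 and STAG2 encode alternative subunits that bind RAD21. NIPBL encodes the loader, WAPL, PDS5A and PDS5B encode proteins that release the ring or regulate it on chromatin, and ESCO2 encodes an acetyltransferase of SMC3. The libraries came from unsynchronized cultures of U-2 OS, a human osteosarcoma cell line, and the comparison asks how expression differs after DNA damage. In 3 libraries the cells were untreated (0 Gy), and in 3 libraries they received 4 Gy of ionizing radiation (IR) and were lysed 24 h later. The labels give no transgene, drug or second genotype to either group, and both groups are the same single tumour line. The study describes the replicates as independent samples, without saying whether each had its own irradiation, and the P values below measure the spread between these samples.

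The deposited estimated counts totalled 18573309 to 22953834 in 5 of the libraries and 45308792 in IR replicate 3, which has the smallest counting error. IR replicate 3 also stood apart within its group. Its chi-square per gene was 26.5 and 29.4 against IR replicates 1 and 2, which had 5.69 between them. On the first principal component, the main axis of difference between the libraries, it lay at 27.7, against 11.4 and 15.8. The part of its depth in this was not tested. The 6 markers of mesenchymal or bone cells summed to between 1814 and 1888 TPM in untreated and between 1856 and 2172 TPM in IR libraries. TPM is a level per transcript length, here as deposited by the authors. Most of the sum was VIM, at means of 1170 TPM in untreated and 1283 TPM in IR libraries. The bone marker RUNX2 had means of only 4.51 and 4.07 TPM. By counts RUNX2 was lower after IR (log2 fold change −0.36, edgeR adjusted P = 0.025) and CD44 higher (0.37, edgeR adjusted P = 0.00195). COL1A2, which encodes a bone collagen, was below 0.9 TPM throughout. Markers of 6 other lineages summed to between 19.8 and 22.3 TPM before and between 20.5 and 21.5 TPM after IR, most of it EPCAM, and the liver and neural crest markers ALB and SOX10 were at 0 in every library.

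Cohesin is a protein ring that entraps DNA. It holds sister chromatids together from their replication until anaphase, folds interphase chromosomes into loops that end at CTCF sites, and keeps a sister chromatid at hand as a template for the repair of double-strand breaks. NIPBL, with its partner MAU2, loads the ring. WAPL and the PDS5 proteins open it, acetylation of SMC3 by ESCO1 and ESCO2 and binding of sororin (CDCA5) counter this opening, and separase (ESPL1) finally cleaves RAD21.

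All 10 genes passed the filter on low counts and had lower counts after IR. The fall was between 20.7% for PDS5A and 34.7% for NIPBL, and the median log2 fold change of IR over untreated was −0.48, against 0.01 over the 14323 tested genes. Each of the 10 was called lower by the quasi-likelihood test of edgeR at an adjusted P under 0.05, where 14.5% of all tested genes were called lower. SMC3, STAG2, NIPBL and ESCO2 fell by over 0.5 (log2), as 3.74% of all tested genes were. In each of the 10 the 3 IR libraries lay below the 3 untreated libraries, as they did in 23.3% of all tested genes, and a two-sided exact permutation test gave P = 0.1, the smallest that 3 libraries against 3 allow. Without IR replicate 3, the deepest library, all 10 were still called lower, with log2 fold changes between −0.54 for STAG2 and −0.28 for PDS5A. In bulk RNA, fewer cells of a given type or cell cycle stage cannot be told apart from less RNA per cell.

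**Figure D1:**
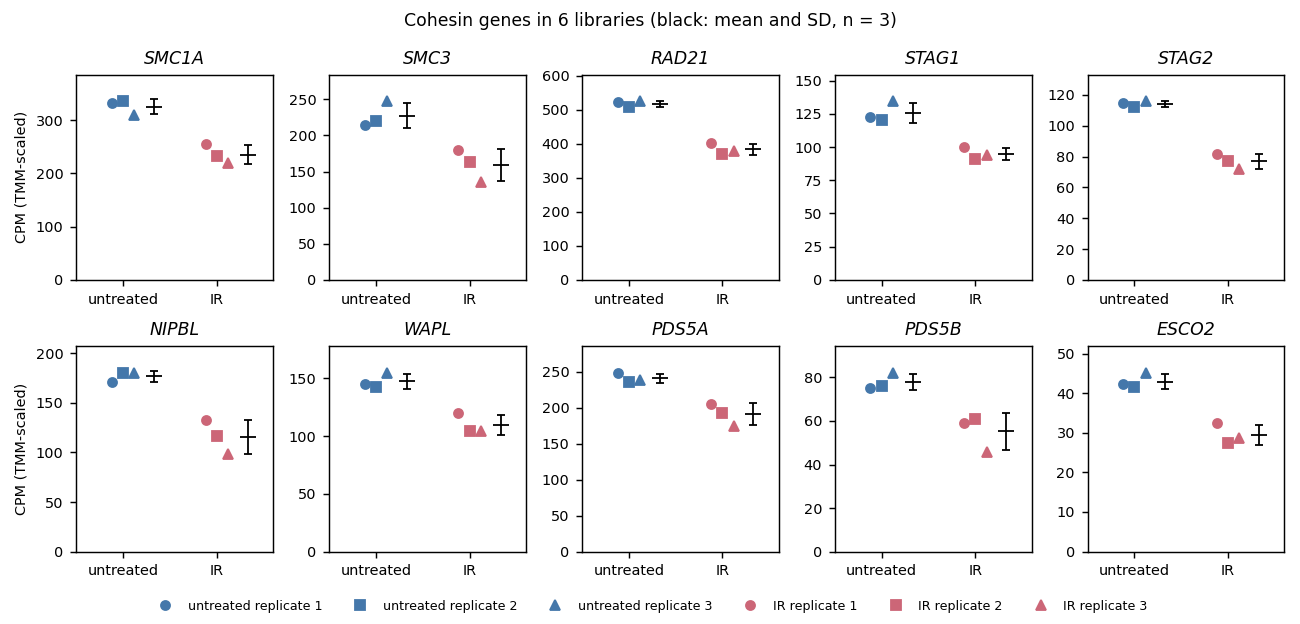
Normalized counts (CPM, linear axes from 0) of the 10 cohesin genes in untreated replicates 1 to 3 (blue) and IR replicates 1 to 3 (red), with the mean and SD of each group (n = 3) in black. In every panel the 3 IR libraries lie below the 3 untreated libraries, with the highest levels for RAD21 (508 to 524 against 369.5 to 401 CPM) and the lowest for ESCO2 (41.5 to 45.1 against 27.5 to 32.4 CPM).

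Because the 10 genes moved in one direction, their start regions were searched for short motifs of cell cycle genes. The windows, from 250 bases before to 50 bases after each start, are from RefSeq on GRCh38.p14. They cover 8 members with 11 windows. RAD21 and ESCO2 were not searched. An E2F-type motif, the kind of site that E2F factors bind at genes of S phase, was defined as TTTCCCGC, TTTGGCGC, TTTCGCGC or TTTGCCGC on either strand. It was found in 4 of the 8 members, SMC1A, STAG1, STAG2 and NIPBL, in 4 of their 11 windows. Among all RefSeq windows 3.32% held it, and of the 11248 tested genes with a window 6.47% held it in at least 1 of them. The 4 matches are shown as a feature of these genes that their selection did not use. The same holds for the motifs of the next paragraph, whose sequences are not printed. Searched members without an E2F-type match, SMC3, WAPL, PDS5A and PDS5B, also had lower counts after IR. The 4 matches lie on the strand of the gene, 20 bases before the RefSeq start of the window in SMC1A, 183 in STAG1, 51 in STAG2 and 49 in NIPBL, and stand in capitals. Some transcripts described below begin elsewhere. STAG2-202 begins at 123961739, STAG2-204 at 123961718 and, on the reverse strand, SMC1A-206 at 53422728. The matches in STAG2 and SMC1A lie after these starts. For SMC1A and STAG2 the match with up to 60 bases either side overlaps an annotated exon of the gene, and only 30 bases are given.
SMC1A, chrX:53422656-53422685, reverse strand: gcactgcggcgTTTCCCGCgcgggctacct
STAG1, chr3:136752494-136752621, reverse strand: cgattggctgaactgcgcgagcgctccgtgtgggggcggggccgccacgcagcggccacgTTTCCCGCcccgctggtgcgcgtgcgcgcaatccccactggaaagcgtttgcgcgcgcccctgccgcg
STAG2, chrX:123961996-123962025, forward strand: tgttggggggtTTTGGCGCcacttttgttt
NIPBL, chr5:36876660-36876768, forward strand: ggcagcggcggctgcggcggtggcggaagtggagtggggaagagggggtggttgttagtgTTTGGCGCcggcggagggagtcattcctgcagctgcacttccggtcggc

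The CHR motif, TTTGAA or TTCGAA on either strand, is the element that MuvB complexes bind at genes of G2 and mitosis. It was found in SMC3 and PDS5B, 2 of the 8 members, against 16.1% of the tested genes with a window. CCAAT, the motif of NF-Y, was found on either strand in 5 of the 8 members (STAG1, STAG2, WAPL, PDS5A and PDS5B), against 43.2% of those genes. None of the letters of one motif set contains those of another. These are matches of letters only, and binding was not measured.

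The ring genes fell by similar amounts. SMC1A lies on chromosome X of GRCh38 from 53374149 to 53422728, and its canonical transcript has 25 exons. Its normalized counts (CPM, scaled by TMM for library size and composition) were 331, 335 and 309.5 in the untreated libraries and 254, 233 and 219 in the IR libraries, in the order of replicates 1, 2 and 3 that is kept throughout. Even the highest IR library was thus well under the lowest untreated one. SMC1A fell by 27.7% (log2 fold change −0.47, standard error 0.07, 95% confidence interval −0.63 to −0.31, edgeR adjusted P = 0.00177).

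SMC3, the partner of SMC1A and the substrate of the acetyltransferases, lies on chromosome 10 from 110567684 to 110606048 (29 exons). It was at 215, 219.5 and 247 CPM in untreated and at 179, 163 and 136 CPM in IR libraries. Untreated replicate 3 was the highest and IR replicate 3 the lowest, and the groups did not overlap. SMC3 fell by 30.0% (log2 fold change −0.51, standard error 0.10, edgeR adjusted P = 0.00484).

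RAD21, the kleisin that closes the ring and is cleaved at anaphase, lies on chromosome 8 from 116845934 to 116874776 (14 exons) and had the most counts of the 10. It was at 521, 508 and 524 CPM in untreated and at 401, 369.5 and 379 CPM in IR libraries. The spread within either group was small against the gap between them. RAD21 fell by 26.1% (log2 fold change −0.44, standard error 0.06, edgeR adjusted P = 0.00124).

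STAG1 and STAG2 take the same place on RAD21, and STAG2 is often mutated in tumours. STAG1 lies on chromosome 3 from 136336236 to 136752403 (34 exons) and was at 123, 120.2 and 134.5 CPM in untreated and at 99.9, 91.3 and 93.9 CPM in IR libraries. It fell by 24.5% (log2 fold change −0.40, standard error 0.07, edgeR adjusted P = 0.00281). STAG2 lies on chromosome X from 123960212 to 124422664 (35 exons) and was at 115, 112 and 116 CPM in untreated and at 81.7, 77.0 and 71.9 CPM in IR libraries. Its untreated libraries differed little (SD 1.94 CPM, n = 3), and every IR library was under them. STAG2 fell by 32.8% (log2 fold change −0.57, standard error 0.07, edgeR adjusted P = 6.10e-04), the lowest P of the members.

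The ratio of STAG1 to STAG2 counts, which does not depend on the scaling of a library, was 1.07, 1.07 and 1.16 in untreated and 1.22, 1.19 and 1.31 in IR libraries. The groups did not overlap, and the log2 ratio differed by 0.17 (two-sided exact permutation test, P = 0.1, adjusted P = 0.2 over the 2 pairs of paralogs). From the deposited TPM values the difference was 0.11 and the groups overlapped (exact permutation P = 0.5), so that a shift towards STAG1 was not established.

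NIPBL, whose mutation is the main cause of Cornelia de Lange syndrome, had the largest fall in counts. It lies on chromosome 5 from 36876769 to 37066413 (47 exons) and was at 171, 179.8 and 180.2 CPM in untreated and at 132.5, 116.5 and 98.4 CPM in IR libraries. The IR libraries differed among themselves more than the untreated ones (SD 17.1 against 5.33 CPM, n = 3 each), with IR replicate 3 the lowest. NIPBL fell by 34.7% (log2 fold change −0.61, standard error 0.10, edgeR adjusted P = 0.00200), by counts, whereas its TPM did not separate the groups, as given with the levels per length.

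Among the genes of release, WAPL lies on chromosome 10 from 86435256 to 86521792 (19 exons) and was at 145, 142.5 and 155 CPM in untreated and at 119.8, 104.8 and 104.6 CPM in IR libraries. WAPL fell by 25.7% (log2 fold change −0.43, standard error 0.07, edgeR adjusted P = 0.00280). PDS5A and PDS5B are paralogs that bind both WAPL and the acetyltransferases. PDS5A lies on chromosome 4 from 39822863 to 39977956 (33 exons) and was at 248, 235 and 238 CPM in untreated and at 205.5, 192 and 175 CPM in IR libraries. Its fall of 20.7% was the smallest of the 10 (log2 fold change −0.34, standard error 0.07, edgeR adjusted P = 0.00771). PDS5B lies on chromosome 13 from 32586452 to 32778019 (35 exons) and was at 75.2, 76.1 and 82.0 CPM in untreated and at 59.3, 61.0 and 45.6 CPM in IR libraries. IR replicate 3 was well under the other 2 IR libraries. PDS5B fell by 29.2% (log2 fold change −0.50, standard error 0.11, edgeR adjusted P = 0.00703), and without IR replicate 3 the log2 fold change was −0.38 (edgeR adjusted P = 0.00200).

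The ratio of PDS5A to PDS5B counts was 3.30, 3.09 and 2.90 in untreated and 3.47, 3.15 and 3.83 in IR libraries. These overlap, and the difference of 0.17 in the log2 ratio had an exact permutation P of 0.2 (adjusted P = 0.2 over both pairs).

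ESCO2 acts in S phase, when cohesion is made, and had the fewest counts of the 10. It lies on chromosome 8 from 27771949 to 27812640 (11 exons) and was at 42.2, 41.5 and 45.1 CPM in untreated and at 32.4, 27.5 and 28.8 CPM in IR libraries. All IR values were far below the untreated ones relative to the spread. ESCO2 fell by 31.2% (log2 fold change −0.54, standard error 0.08, edgeR adjusted P = 0.00159).

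The members were not shown to have fallen by unequal amounts. The log2 ratio of the counts of each of the other 9 genes to SMC3, within a library, differed between groups by −0.10 for NIPBL to 0.18 for PDS5A. The exact permutation P was between 0.2 and 0.9, and 0.9 after adjustment over the 9 ratios for each of them. With 3 libraries against 3, such a test cannot give a P under 0.1, so that no unequal fall could have been called.

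Fold changes in these libraries followed the GC content of the transcripts, and most cohesin genes are AT-rich. SMC3, STAG2, PDS5B and ESCO2 lie in the lowest eighth of tested genes by GC content (31.0% to 40.1% GC), where 32.7% of genes were called lower. RAD21, STAG1, NIPBL, WAPL and PDS5A lie in the second eighth, where 25.6% were called lower. SMC1A, with 50.5% GC, lies in the fifth eighth, where 11.7% were called lower. In all 3 of these eighths the cohesin genes were below the median of the genes of like GC content, which was −0.19, −0.13 and 0.01 on the log2 scale.

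After each library's GC trend was removed, all 10 members remained lower, with a median log2 fold change of −0.32, where 12.6% of all tested genes were called lower. SMC1A was nearly unmoved at −0.48 and NIPBL was at −0.46 (edgeR adjusted P = 0.00108 and 0.00202). PDS5A moved to −0.19 (edgeR adjusted P = 0.0308) and STAG1 to −0.24 (edgeR adjusted P = 0.0126), and the other 6 lay between −0.38 for STAG2 and −0.27 for RAD21. When a library was left out as well, PDS5A was no longer called without untreated replicate 1, untreated replicate 2 or IR replicate 2 (log2 fold change −0.16, −0.20 and −0.20), PDS5B was not called without untreated replicate 2 (−0.34) and STAG1 not without IR replicate 2 (−0.22). How far GC content accounts for the falls was not tested further.

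**Figure D2:**
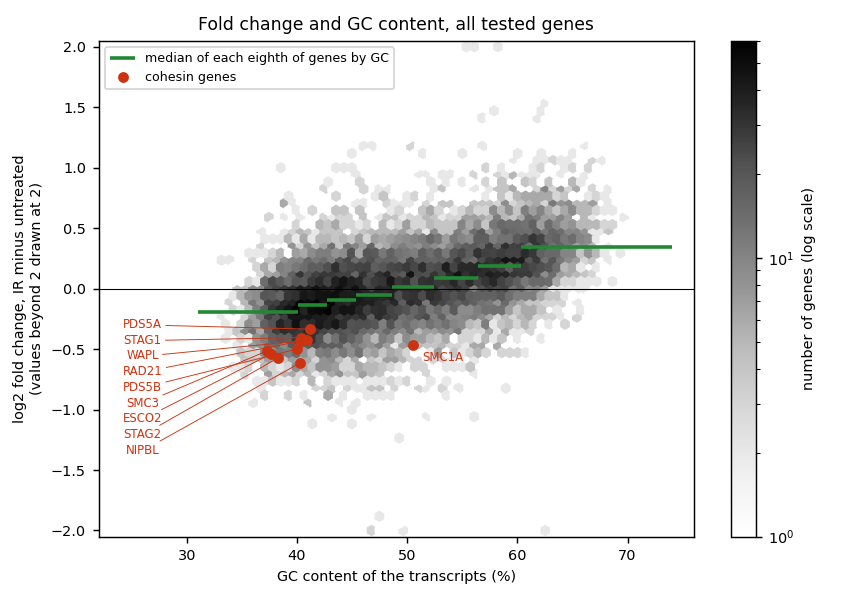
Log2 fold change (IR minus untreated, vertical axis) against GC content of the transcripts (percent, horizontal axis) for the 14323 tested genes, with the number of genes per hexagon in grey on a log scale. Green lines are the medians of each eighth of genes by GC content, from −0.19 in the lowest to 0.34 in the highest, and red points are the 10 cohesin genes, all of which lie below the median of their eighth.

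A second adjustment changed the calls of 3 members. With an offset for the effective length of each gene's transcripts in each library, which also takes up shifts between short and long transcripts, 7 of the 10 were called lower, where 6.11% of all tested genes were. NIPBL was then at −0.03 (95% confidence interval −0.35 to 0.29, edgeR adjusted P = 0.902). WAPL was at −0.23 (edgeR adjusted P = 0.159) and PDS5B at −0.62 with a wide interval (−1.13 to −0.11, edgeR adjusted P = 0.1001). The other 7 lay between −0.82 for STAG2 and −0.41 for PDS5A. Where the offset used the same transcript weights in every library, all 10 were called lower, between −0.67 for NIPBL and −0.37 for PDS5A.

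**Figure D3:**
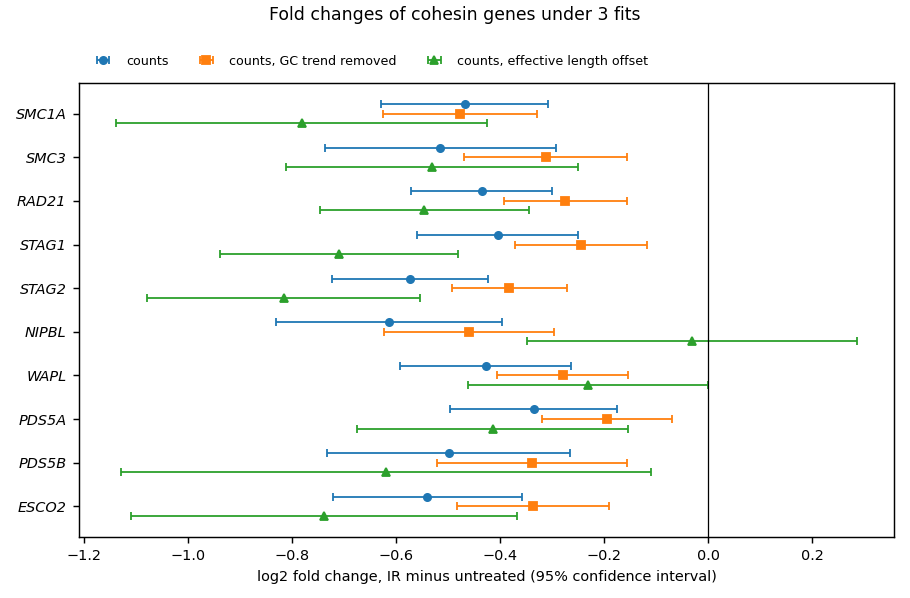
Log2 fold changes (IR minus untreated) of the 10 cohesin genes with 95% confidence intervals, from the counts (blue circles), with the GC trend removed (orange squares) and with the effective length offset (green triangles). All values are below 0, and the interval crosses 0 only for NIPBL (−0.03) and WAPL (−0.23) with the length offset.

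Levels were compared between genes only per length, by TPM. In untreated libraries RAD21 was at 283 ± 11.1 TPM (SD, n = 3), SMC1A at 177 ± 8.77, SMC3 at 82.6 ± 6.03 and PDS5A at 66.8 ± 0.895. Below them came PDS5B at 55.6 ± 10.3, NIPBL at 51.7 ± 6.69, STAG1 at 51.2 ± 4.08, STAG2 at 50.4 ± 3.25 and WAPL at 46.7 ± 3.87 TPM, and each neighbour in this run from PDS5A to WAPL overlapped with the next. ESCO2 was the lowest, at 37.8 ± 3.08 TPM. By these summed TPM the ring subunits were thus the highest and the SMC3 acetyltransferase the lowest. Short transcripts make up part of such sums. In untreated libraries SMC1A-203, of 880 bases, gave a mean of 99.5 of the 177 TPM of SMC1A. PDS5B-202, of 906 bases, gave a mean of 32.0 TPM and ESCO2-207, of 691 bases, 17.8 TPM. The places of SMC1A and PDS5B in this order thus rest in part on short transcripts.

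After IR the order began in the same way, with RAD21 at 188 ± 13.9, SMC1A at 98.9 ± 20.2 and SMC3 at 55.2 ± 6.999 TPM, and ended with ESCO2 at 21.98 ± 5.15 TPM. NIPBL was at 52.8, 44.6 and 57.8 TPM in untreated and at 49.7, 53.1 and 43.5 TPM in IR libraries. These overlap, unlike its counts. Part of the level of some genes is that of short transcripts. NIPBL-207, of 452 bases, gave a mean of 16.01 TPM before and 20.8 TPM after IR, and SMC1A-203, of 880 bases and annotated as nonsense-mediated decay, 99.5 TPM before and 45.7 TPM after. These 2 transcripts hold a small part of the counts of their genes and were singled out after their values were seen. The place of SMC1A in the order after IR also rests in part on SMC1A-203.

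Among transcripts of the members, 15 held at least 20% of the counts of their gene in 1 of the groups, and 12 of these had lower TPM in every IR than in every untreated library, against 14% of transcripts of this kind in all tested genes. In 5 genes there were 2 such transcripts, and in 4 of these genes the transcript with fewer bases after its last coding base had the lower ratio of IR to untreated TPM, against 58.6% of the 3578 genes with such a pair. With only 5 genes, this was not shown to differ from that share. In 7 of these 10 transcripts the share of the gene's counts did not overlap between groups, against 18.2% of transcripts in such genes overall.

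STAG2 had the widest contrast. STAG2-202, with 308 bases after its last coding base, was at 20.4, 19.1 and 17.9 TPM in untreated and at 10.7, 5.61 and 3.70 TPM in IR libraries. STAG2-204 has as many coding bases (3693) but 2062 bases after the last, and it was at 12.9, 10.9 and 10.5 TPM in untreated and at 10.0, 11.3 and 14.3 TPM in IR libraries. The first was lower in every IR library, and the second overlapped between groups. As shares of the STAG2 counts, STAG2-202 went from 32.3% to 38.5% in untreated to 11.2% to 29.0% in IR libraries, and STAG2-204 from 27.6% to 34.6% to 38.9% to 61.8%. IR replicate 3 was the most extreme library for both.

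In SMC1A, STAG1 and PDS5B the transcript that is shorter after its last coding base also had the lower ratio. SMC1A-206 (52 bases after the last coding base) was at 50.9, 53.9 and 52.1 TPM in untreated and at 37.6, 31.5 and 22.7 TPM in IR libraries. SMC1A-201 (5957 bases) was at 25.04, 24.6 and 22.1 TPM in untreated and at 19.5, 17.5 and 23.8 TPM in IR libraries, an overlap that comes from IR replicate 3 alone. STAG1-203 (1100 bases) was at 16.7, 14.1 and 19.3 TPM in untreated and at 13, 7.24 and 8.91 TPM in IR libraries. STAG1-202 (2021 bases), the canonical transcript, overlapped between groups, at 15.5, 15.5 and 17.8 TPM and at 14.8, 14.5 and 17.9 TPM. This overlap also rests on IR replicate 3, since IR replicates 1 and 2 lay below every untreated library. PDS5B-203 (1008 bases), annotated as nonsense-mediated decay, was at 13.3, 13.7 and 13.9 TPM in untreated and at 8.64, 7.67 and 7.46 TPM in IR libraries. PDS5B-201 (2970 bases) was at 5.86, 6.36 and 5.82 TPM and at 5.81, 5.52 and 4.43 TPM, a far smaller fall. A transcript under 20% of the counts, WAPL-202, went the other way and was singled out after its values were seen. WAPL-202 (536 bases) had means of 11.3 TPM in untreated and 14.4 TPM in IR libraries, with overlap between groups. WAPL-201 (2290 bases) went from a mean of 35.1 to 23.7 TPM without overlap.

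In NIPBL both leading transcripts were lower. NIPBL-202 (170 bases after the last coding base) was at 18.1, 20.7 and 19.8 TPM in untreated and at 12.9, 12.1 and 7.16 TPM in IR libraries. NIPBL-209 (864 bases) was at 9.51, 11.4 and 8.04 TPM in untreated and at 6.21, 2.89 and 4.30 TPM in IR libraries. NIPBL-208, a transcript with a retained intron that was singled out after its values were seen, took up 3.04%, 1.07% and 4.82% of the NIPBL counts in untreated and 10.6%, 17.1% and 17.5% in IR libraries. Both leading coding transcripts of NIPBL were therefore lower in TPM even though its summed TPM overlapped.

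In the test of transcript usage, edgeR's diffSpliceDGE with a Simes P per gene, 2.73% of 10666 genes were called, and RAD21 was the only member called (adjusted P = 0.0215). RAD21-201 took up 98.0%, 97.1% and 97.1% of the RAD21 counts in untreated and 98.99%, 98.8% and 99.3% in IR libraries. RAD21-207, of 831 bases and singled out after its values were seen, was at 12.2, 19.3 and 32.9 TPM in untreated and at 0, 0 and 1.18 TPM in IR libraries. The change in RAD21 thus concerned a small share of its counts, and the call was lost without untreated replicate 1, 2 or 3, without IR replicate 1 or 2, and with at least 10 counts required for each transcript in every library. STAG2 (adjusted P = 1) and the other 7 members tested were not called, and SMC3 had only 1 transcript past the filter of this test. The 5 transcript pairs are therefore a description. In counts simulated with the spread of these libraries, most calls of this test fell on unchanged genes, so that the call of RAD21 is uncertain. kallisto divides reads between near-identical transcripts by estimate, and the part of that division in these shares was not tested.

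The other genes of the pathway moved less uniformly. Of 21 listed genes 19 were tested, of which 7 were called lower, 1 higher and 11 neither, where 14.5% of all tested genes were called lower and 15.5% higher. Their median log2 fold change was −0.18. Both genes called with more than 0.5 on the log2 scale were lower. SGO2, listed here with the protectors of cohesion, was at 84.1, 85.7 and 85.7 CPM in untreated and at 60.02, 50.7 and 50.3 CPM in IR libraries (log2 fold change −0.67, edgeR adjusted P = 6.32e-04). CTCF, at whose sites cohesin loops end, was at 121.5, 121 and 116 CPM in untreated and at 85.0, 85.9 and 78.8 CPM in IR libraries (log2 fold change −0.52, edgeR adjusted P = 6.84e-04). Neither gene overlapped between groups.

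The partner of NIPBL in the loader, MAU2, was not called. It was at 27.2, 29.3 and 23.8 CPM in untreated and at 30.6, 29.3 and 31.1 CPM in IR libraries (log2 fold change 0.18, 95% confidence interval −0.02 to 0.38, edgeR adjusted P = 0.147). With the GC trend removed its log2 fold change was 0.0081. Its mean TPM went from 10.1 ± 1.76 to 8.50 ± 0.633 (SD, n = 3), against the direction of its counts, and the difference between MAU2 and NIPBL was not tested. ESCO1, the acetyltransferase that acts through the cell cycle, was at 33.6, 33.3 and 30.6 CPM in untreated and at 30.6, 28.4 and 25.6 CPM in IR libraries (log2 fold change −0.21, edgeR adjusted P = 0.0936). HDAC8, which removes the acetyl group from SMC3, was at 36.6, 41.8 and 43.3 CPM and at 37.4, 37.2 and 36.1 CPM (log2 fold change −0.14, edgeR adjusted P = 0.204), and its exons overlap with those of another coding gene on the same strand. Of these regulators CDCA5, which encodes sororin, was called lower, from 124, 120.7 and 128 CPM to 93.9, 103 and 113 CPM (log2 fold change −0.26, edgeR adjusted P = 0.0275).

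Protectors and the protease of cohesion were mostly lower. SGO1, HASPIN and ESPL1 were called lower (log2 fold changes −0.40, −0.34 and −0.44), and PTTG1, which encodes the securin that holds separase inactive, was not called (−0.08). Of 7 genes that act at replication forks on cohesion, WDHD1 was called lower (−0.42) and CHTF18, of an alternative clamp loader, higher (0.41, edgeR adjusted P = 0.0273). CHTF18 was at 22.2, 21.5 and 25.1 CPM in untreated and at 29.5, 25.6 and 35.7 CPM in IR libraries, and it lies in the highest eighth by GC content, where 45.1% of genes were called higher. Its call was lost with the GC trend removed, with the length offset and without IR replicate 3, untreated replicate 1 or untreated replicate 2. DDX11, CHTF8, DSCC1, TIMELESS and TIPIN lay between −0.23 and 0.07 and were not called. DDX11 has near-identical copies in the genome, between which reads could have been split.

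By TPM, subunits that replace ring members in meiosis were low or absent, apart from STAG3. SMC1B was at 0 in all libraries, and RAD21L1 was between 0.0658 and 0.406 TPM and was not tested. REC8 was between 1.03 and 2.88 TPM (log2 fold change 0.37, edgeR adjusted P = 0.294). STAG3 was at 39.3, 39.5 and 48.8 TPM in untreated and at 44.6, 40.0 and 59.7 TPM in IR libraries. That is of the order of STAG1 and STAG2, but its TPM-weighted mean transcript length was 857 bases, against 4673 and 4739. By counts its untreated mean was 26.6 CPM, against 126 for STAG1 and 114 for STAG2. Its exons overlap with those of another coding gene on the same strand. STAG3 was not called by counts, which near-identical pseudogene copies make uncertain (log2 fold change 0.14, edgeR adjusted P = 0.228).

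**Figure D4:**
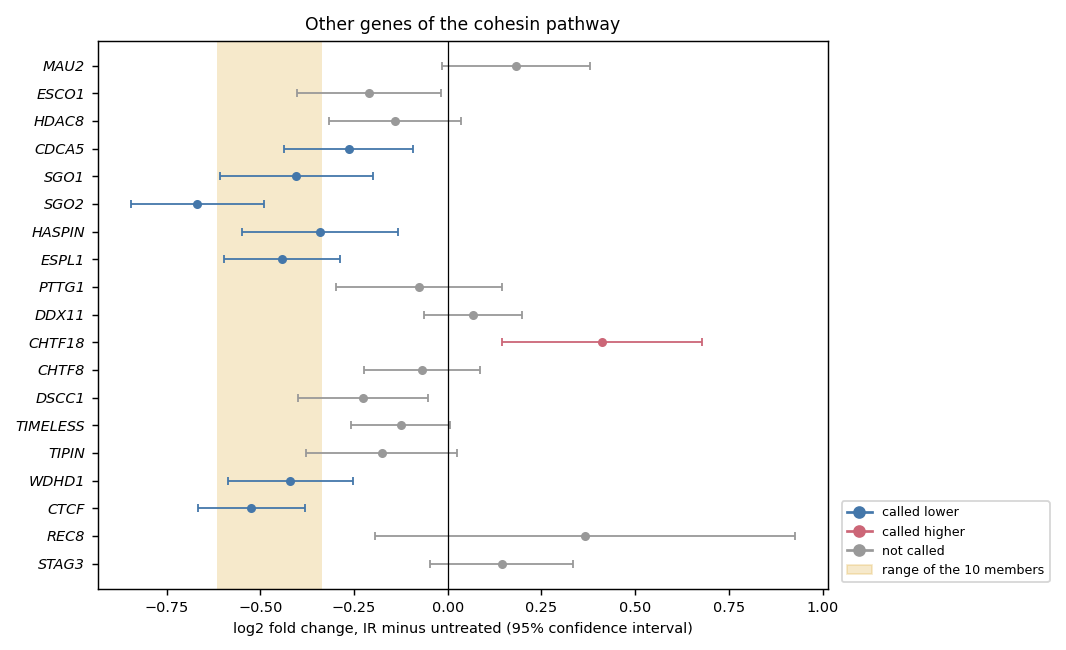
Log2 fold changes (IR minus untreated, horizontal axis) with 95% confidence intervals of the 19 tested genes of the wider cohesin pathway, in blue where called lower, red where called higher and grey where not called, with a band for the range of the 10 cohesin genes (−0.61 to −0.34). CTCF, SGO1, HASPIN, ESPL1 and WDHD1 fall within the band and SGO2 (−0.67) beyond it, while the estimate for MAU2 (0.18) lies on the other side of 0, with an interval that includes 0.

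Many other genes of chromosome structure and of the cell cycle were also called lower. Of 8 condensin genes, which encode the related complex that compacts mitotic chromosomes, 7 were called lower and 0 higher (median log2 fold change −0.43), where 14.5% of all tested genes were called lower. By count and median they stood close to the cohesin genes, and no test of a difference was made. Of 10 genes of S phase 5 were called lower and 0 higher (median −0.19), with a summed level of 1934 to 2127 TPM in untreated and 1632 to 1770 TPM in IR libraries. In a list of 10 G2 and M phase genes, 7 were called lower and 0 higher (median −0.28), with a summed level of 1860 to 2114 TPM in untreated and 1500 to 1768 TPM in IR libraries. Both sums were lower in every IR library. With the GC trend removed, 8 of the 8 condensin genes, 8 of the 10 S phase genes and 7 of the 10 G2 and M phase genes were called lower, with medians of −0.31, −0.32 and −0.33, close to the −0.32 of the cohesin genes. The part of the cell cycle distribution in the falls of the cohesin genes was not tested.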

How the data were processed

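Adaptors had been trimmed (fastp) and reads assigned by kallisto to GENCODE release 37 (GRCh38.p13), and the authors deposited an estimated count per transcript, which is not normalized, beside a TPM value that they had scaled by effective length and library total. The sample labels name an mRNA kit and poly(A) RNA but the study's methods a total RNA kit, and strand is not given in the sources used here. The name of the file for IR replicate 3 has a mark that may mean a repeat.

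Identifiers of 158711 transcripts matched GENCODE release 44, and 2460 transcripts, with 1.54% to 1.80% of counts, did not and were left out. Gene sums of the estimated counts were rounded, filtered by filterByExpr and normalized by TMM. IR was tested against untreated over all 6 libraries with the quasi-likelihood functions of edgeR (4.0.16, with limma 3.58.1, R 4.3.3; DESeq2 1.42.0 as an alternative), adjusted by Benjamini–Hochberg over all tested genes, with a threshold of 0.05. Deposited TPM values were summed per gene. The members and gene lists were chosen with earlier results of these data known. Named were all members, transcripts with at least 20% of a member's counts, and, of the pathway list, genes called with over 0.5 on the log2 scale, MAU2, ESCO1, CDCA5, HDAC8 and the germline subunits, with other genes of that list by fold change only. CHTF18 was given in full, and NIPBL-207, NIPBL-208, SMC1A-203, PDS5B-202, ESCO2-207, RAD21-207 and WAPL-202 were named, after their values were seen. No library was a copy of another, since pairs within a group had a chi-square of at least 3.36 per gene.

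The scripts were tested on simulated counts. For IR against untreated over 14323 genes, the gene test recovered 2.5%, 48.3% and 71.2% of genes changed by 0.25, 0.5 and 1 on the log2 scale and called 7 unchanged genes. The usage test recovered 1% of genes with the second transcript raised 4-fold over 10268 genes and 38.5% of those raised 16-fold over 10240 genes, and it called 73 and 110 unchanged genes. In both of these settings more unchanged than changed genes were called.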

Additional observations from a re-analysis of the deposited data

How the results depend on the processing

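All 10 cohesin genes stayed called lower without any 1 library, with no filter or a minimum of 10 counts, under DESeq2 (its size factors or its Wald test), under the likelihood ratio test, with a replicate block, after GC correction, and with block and GC correction together. Leaving out a library moved NIPBL between −0.74 and −0.52 and PDS5A between −0.41 and −0.28 on the log2 scale. The exceptions were NIPBL, WAPL and PDS5B with the length offset and, where GC was corrected and a library left out, PDS5A, PDS5B and STAG1, with the values given above. These GC-corrected fits and the offset with equal weights were chosen after seeing the data. Over all genes, 2227 were called higher and 2080 lower. The counts were 833 and 875 with the length offset, 1475 higher with block and GC correction, and between 1295 and 2114 higher and 1244 and 2284 lower with a library left out. With GC correction as well they were 970 higher and 1090 lower without untreated replicate 1, 911 and 980 without untreated replicate 2, and 1146 and 1252 without IR replicate 2, and 1325 and 1456 were higher without untreated replicate 3 and IR replicate 1. The cause was not tested, except that fewer libraries entered the last fits. Of the pathway genes 0 were called higher with GC correction, alone or with the block or a library left out, with either length offset and without untreated replicate 1, untreated replicate 2 or IR replicate 3, and 3 were called lower with the length offset.

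From deposited TPM, ratios to SMC3 turned direction for SMC1A (−0.27), RAD21 (−0.0071), STAG1 (−0.17), NIPBL (0.51) and PDS5B (−0.11). With 1 library left out the change in the log2 ratio lay between −0.048 and 0.10 for SMC1A, −0.018 and 0.14 for RAD21, −0.041 and 0.0496 for PDS5B and −0.11 and 0.047 for ESCO2. With 3 libraries against 3, no ratio could have passed its test in either unit. From TPM the ratios of SMC1A, NIPBL and WAPL (0.31) to SMC3 did not overlap between groups. Each had an exact permutation P of 0.1 before adjustment, the smallest possible. For transcript usage 0 to 1 members were called with a library left out, STAG2 without untreated replicate 3, STAG1 without IR replicate 1 and RAD21 without IR replicate 3, and NIPBL was called where every transcript needed at least 10 counts. With the replicate block, 1727 genes were called higher and 1624 lower, and no call of a cohesin gene changed. The sources do not say whether libraries of the same number were paired. Correlations of their deviations were −0.016, −0.048 and −0.075, which show no pairing but cannot exclude a weak one. Depth limits changes of transcripts with few counts.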

Other observations

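Several cohesin genes share exons with genes on the opposite strand, and where the counting does not use strand, reads of the 2 genes cannot be told apart. RIBC1, opposite SMC1A, was at 1.37 to 2.23 CPM in the 6 libraries (log2 fold change 0.17, edgeR adjusted P = 0.647), far below SMC1A. UTP23, opposite RAD21, was at 32.3, 28.3 and 34.5 CPM in untreated and at 28.2, 27.9 and 27.7 CPM in IR libraries (log2 fold change −0.18, edgeR adjusted P = 0.132). PCCB, opposite STAG1, was at 37.7, 34.8 and 36.7 CPM in untreated and at 39.1, 40.1 and 49.0 CPM in IR libraries (log2 fold change 0.24, edgeR adjusted P = 0.0798). TENM1, opposite STAG2, had between 5 and 12 counts in a library and was not tested.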
